A study of Ovis aries with 40 samples.

Results

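Immunoglobulin chain transcripts were followed in the longissimus muscle of sheep from midgestation to 2 months after birth. They were represented by 89 of the 15008 non-control probes of a single-colour Agilent array. A probe was a member if its annotation line named immunoglobulin, or Ig, together with a heavy, light, lambda, kappa, gamma or mu chain, and no measured value entered that choice. The members were 4 constant region probes of heavy chains, 57 heavy chain variable region probes (IGHV), 4 kappa and 7 lambda variable region probes, 1 lambda constant region segment, and 16 light chain variable region clones (IGLV). The Texel, a heavily muscled and lean breed, carries a natural mutation that affects myostatin, a brake on muscle growth, and was set against the fatter and less muscled Ujumqin. Fetuses of both breeds were taken by caesarean section at 5 stages of gestation (70, 85, 100, 120 or 135 d), named T70 to T135 and U70 to U135, and Ujumqin lambs at birth (Ubirth), 1 month (U1m) and 2 months (U2m). Each of the 13 groups held 3 arrays, with 4 in T100, and each of the 40 arrays held the RNA of 1 animal. No Texel lamb was sampled, so everything after birth rests on 9 Ujumqin lambs. Dams were not named, and fetuses of T100 may share one, since the methods name fewer ewes than there are T100 arrays. All T120 fetuses were male and all U120 fetuses female, and U135 and U2m were all female.

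Antibodies are built from paired heavy and light chains. The constant region of the heavy chain sets the class: mu for IgM, delta for IgD, gamma for IgG and alpha for IgA. A light chain is either kappa or lambda, and sheep antibodies carry mostly lambda. The variable regions are assembled in each developing B cell by joining gene segments, and therefore differ from clone to clone. Resting B cells carry mostly membrane-bound chains, whereas plasma cells make large amounts of the secreted form. The ruminant placenta passes no antibody to the fetus, and the lamb takes up maternal antibody from colostrum as protein. Immunoglobulin genes are expressed by cells of the B lineage and not by muscle fibres. In pieces of whole muscle, a change in the number of such cells and a change in RNA per cell cannot be told apart.

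The sequences of the probes on which the results turn are shown first, because several share stretches of letters and clones 17 and 96 are alike over most of their length. Each is a 60-base probe written 5′ to 3′ in the sense of the transcript. No probe of the array came with genome coordinates.
alpha heavy chain: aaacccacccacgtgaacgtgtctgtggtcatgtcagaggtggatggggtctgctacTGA
IGLV clone 139: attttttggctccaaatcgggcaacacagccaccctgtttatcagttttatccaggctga
lambda-1d variable: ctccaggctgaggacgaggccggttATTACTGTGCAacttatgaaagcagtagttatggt
lambda-1e variable: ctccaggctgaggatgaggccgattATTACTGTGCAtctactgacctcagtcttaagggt
IGLV clone 58: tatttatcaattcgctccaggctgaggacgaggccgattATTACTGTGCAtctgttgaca
IGLV clone 17: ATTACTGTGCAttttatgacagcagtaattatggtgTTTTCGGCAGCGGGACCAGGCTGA
IGLV clone 96: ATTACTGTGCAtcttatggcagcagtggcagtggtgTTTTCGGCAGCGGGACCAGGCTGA
IGLV clone 70: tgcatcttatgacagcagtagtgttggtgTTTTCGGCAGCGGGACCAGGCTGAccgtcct
IGLV clone 116: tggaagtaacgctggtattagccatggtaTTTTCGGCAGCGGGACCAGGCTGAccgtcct
In the alpha probe the capitals mark the stop codon, so the probe reports the 3′ end of the coding part. In the lambda and IGLV probes they mark a stretch at the end of framework 3, ATTACTGTGCA, and a stretch that runs into the joining segment, TTTTCGGCAGCGGGACCAGGCTGA, with the letters of the rearranged junction between them. The first is the longest run common to lambda-1d, lambda-1e and clones 58 and 17, and the second that of clones 17, 96, 70 and 116, and their exact letters were searched on both strands. The first stretch stood in 7 of the 23 lambda variable and IGLV probes, in 0 of the 57 heavy chain variable probes and in 0.0733% of all probes. The second stood in 4 of the 23 and in 0.0267% of all probes, and the 2 stretches did not overlap. Clones 17 and 96, compared without a shift, differed at 7 of 60 bases (88.3% identity), so neither probe is certain to report its own clone alone. The same holds for clone 70, which after a shift is alike to both over most of its length. Lambda-1d, lambda-1e and clone 58 are also alike in the letters before and through the first stretch. Rises of these probes may therefore not be separate results. Heavy chain clone 14 was covered by 2 probes that share a run of 47 bases.

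Most members were dim. A spot counts as well above background when the scanner software called it brighter than its surroundings, and 72 of the 89 members (80.9%) met this on at least 1 array, against 96.5% of all probes. These 72 were tested. The other 17, of which 14 were heavy chain variable probes, were well above background on no array and were not tested. On all 40 arrays, 9 members (10.1%) were well above background, against 70.7% of all probes. Levels are log2 of the quantile-normalised signal and are comparable between arrays for 1 probe, not between probes. Differences carry limma standard errors (SE), and a member is said to have risen or fallen where the p-value adjusted over all tested probes was under 0.05. Where a group had no spot well above background, a fold is given as a lower bound, taken against the dimmest reliable signal of each array.

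Some arrays stood apart. In 3 Texel fetuses (T100 replicate 4, T120 replicate 3 and T135 replicate 3) the mu chain and T cell and MHC class II genes were higher than in the other fetuses. Ubirth replicate 2 had the fewest spots well above background, 79.3% against up to 90.9%. Median signal over arrays ran from 218 to 708. The arrays lay on 5 slides, and several groups shared no slide. U135 and U2m lay on the same slide, so their comparison is free of slide differences, whereas U135, Ubirth and U1m lay on 3 different slides.

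The question put first is how far immunoglobulin transcripts in muscle differ between lambs and the last fetal stage. In 2-month lambs the transcripts of the IgA, IgG1 and several lambda-type light chains were above those of 135-d fetuses, and no member fell. Of 72 members, 15 rose and 0 fell in U2m against U135. Over all 14480 tested probes 33.4% were called, 15.5% as higher and 17.9% as lower. The 20.8% of members called were all higher. That share lay below the 33.4% called in either direction and above the 15.5% called as higher. The calls were unevenly spread over the chain types. They comprised 2 of 4 heavy chain constant probes, 12 of 24 light chain variable probes and 1 of 43 heavy chain variable probes. The median difference of the members was 0.45, against 0.01 for all probes. The values of the 2 groups did not overlap in 26 members, of which 23 were higher in lambs, while 46.6% of all probes did not overlap and 23.8% were higher without overlap. The count of 15 fell to 7 without U2m replicate 3 and to 7 without U135 replicate 1.

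The alpha heavy chain, which defines IgA, the antibody class of mucosal surfaces, separated lambs from fetuses completely. Its levels were 5.48, 5.88 and 5.88 in U135. They were 10.72, 10.32 and 8.65 in Ubirth, 10.17, 8.85 and 10.10 in U1m and 9.59, 10.06 and 10.03 in U2m. All 31 fetal arrays of both breeds lay between 3.73 and 6.57, below the lowest lamb. The difference between U2m (9.89 ± 0.26, SD, n = 3) and U135 (5.75 ± 0.23, SD, n = 3) was 4.15 (SE 0.46), or 17.7-fold (limma, adjusted p = 7.8e-08). The same difference was already present at birth, at 4.15 (SE 0.46) and 17.8-fold (limma, adjusted p = 7.6e-08). After birth it did not move beyond its error, with U1m minus Ubirth at -0.19 (SE 0.46) and U2m minus U1m at 0.19 (SE 0.46).

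The secreted mu chain, the heavy chain of the IgM that plasma cells release first, followed another course. Its levels were 8.07, 8.37 and 8.17 in U135, and 9.51, 8.54 and 6.39 in Ubirth. They were 11.10, 10.99 and 12.14 in U1m and 10.84, 10.63 and 10.67 in U2m. The birth values thus straddled those of the 135-d fetuses, while every 1-month and 2-month lamb was above every Ujumqin fetus, the highest of which was 9.01. Mu rose by 3.27 (SE 1.13) between birth and 1 month, 9.62-fold (limma, adjusted p = 0.039), but not past the threshold in a fit of those 2 groups alone (adjusted p = 0.055). It was also not called when any array other than Ubirth replicate 1 was left out, with an adjusted p of 0.20 without Ubirth replicate 3. Between U135 and U2m the difference of 2.51 (SE 1.13) missed the threshold with all arrays in the fit (limma, adjusted p = 0.088). The SE there is shared over the 13 groups and includes the 3 Texel fetuses with high mu. Without those 3 arrays the SE was 0.55 and the adjusted p 0.0007, and in a fit of U2m and U135 alone the SE was 0.15 and the adjusted p 0.0020.

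The secreted gamma1 chain, the heavy chain of IgG1, the main antibody of ruminant serum and colostrum, rose between birth and 1 month and was not called at birth. Its levels were 6.69, 6.71 and 6.53 in U135 and 6.74, 6.75 and 6.24 in Ubirth. They were 8.34, 8.29 and 7.95 in U1m and 7.46, 7.71 and 9.78 in U2m. Every 1-month and 2-month lamb was above the highest fetal value of either breed, 7.42. The step from birth to 1 month was 1.61 (SE 0.39), 3.06-fold (limma, adjusted p = 0.0045), and U2m minus U135 was 1.67 (SE 0.39), 3.19-fold (adjusted p = 0.0014). The spread in U2m was wide (8.32 ± 1.28, SD, n = 3), with replicate 3 far above the other two, and in a fit of U2m and U135 alone the adjusted p was 0.088.

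The membrane-bound delta chain, the heavy chain of the IgD that mature B cells carry on their surface, was dim, being well above background in 0 of 3 arrays of U135, 2 of 3 of Ubirth, 3 of 3 of U1m and 1 of 3 of U2m. Its levels were 3.77, 3.84 and 4.11 in U135, and 4.85, 4.76 and 5.31 in Ubirth. They were 4.90, 4.38 and 4.98 in U1m, and 4.80, 4.05 and 4.47 in U2m. It was at least 2.10-fold higher at birth than at 135 d (limma, adjusted p = 0.045), and without Ubirth replicate 2 this was not called (adjusted p = 0.057). U2m minus U135 was 0.53 (SE 0.43), with the 2 groups overlapping.

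**Figure D1:**
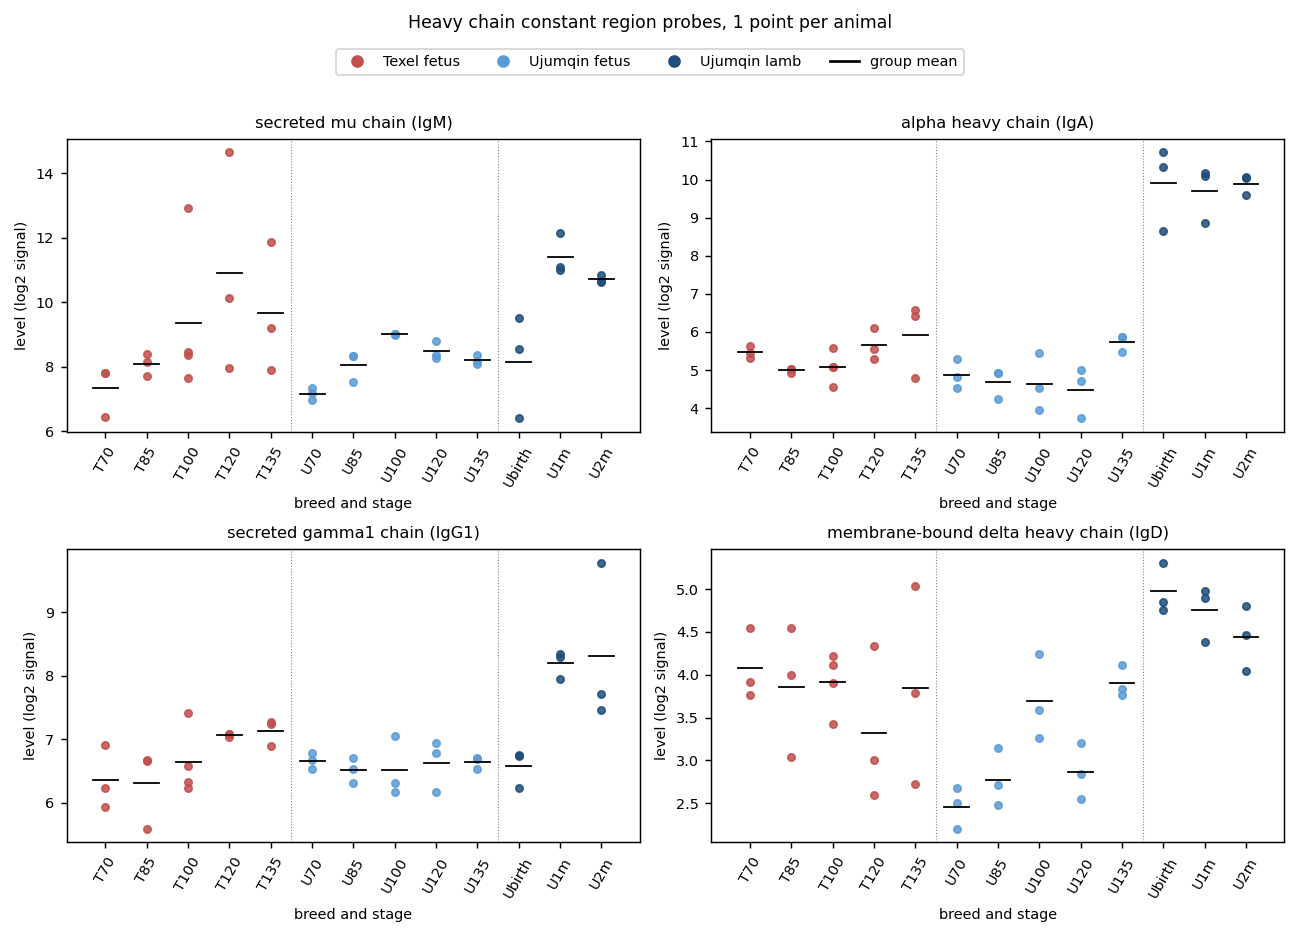
Level (log2 signal, vertical axis, a separate scale in each panel) of the 4 heavy chain constant region probes in each of the 13 groups of breed and stage (horizontal axis). Points are animals and black lines group means. The 9 lambs lie between 8.65 and 10.72 for the alpha chain, above all fetuses, while mu and gamma1 are high from 1 month on and mu is also high in 3 Texel fetuses.

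The light chain variable probes among the 72 tested members were 3 kappa, 6 lambda and 15 IGLV probes. They held 12 of the 15 calls in U2m against U135, 7 of 19 at birth and 6 of 13 from birth to 1 month. Of all probes 33.4%, 42.9% and 21.0% were called in these comparisons, in the same order. Clone IGLV 139 rose at birth and again from 1 to 2 months. Its levels were 6.03, 6.37 and 6.43 in U135 and 7.07, 7.21 and 7.15 in Ubirth. They were 8.26, 7.41 and 7.55 in U1m and 9.28, 9.44 and 9.74 in U2m. No lamb overlapped a fetus of either breed, the highest fetal value being 6.66. It rose by 0.87 (SE 0.23) at birth, 1.82-fold (limma, adjusted p = 0.0034), and by 1.74 (SE 0.23) from 1 to 2 months, 3.35-fold (adjusted p = 0.00013). The step between, from birth to 1 month, was 0.60 (SE 0.23) and missed the threshold (adjusted p = 0.064). Over the whole interval it was 9.25-fold higher in U2m than in U135 (adjusted p = 3.4e-11).

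The lambda-1d variable probe was well above background in every 1-month and 2-month lamb and in 0 of 3 arrays of U135. Its levels were 1.37, 2.39 and 1.38 in U135 and 3.24, 1.43 and 3.44 in Ubirth. They were 4.99, 4.98 and 5.78 in U1m and 4.78, 4.78 and 5.33 in U2m. Of the fetuses, T120 replicate 3 was highest at 4.13 and T100 replicate 4 next at 3.81, both under the lowest 2-month lamb. It was at least 3.01-fold higher in U2m than in U135 (limma, adjusted p = 7.1e-05) and at least 2.32-fold higher in U1m than in Ubirth (adjusted p = 0.0028).

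Clone IGLV 58 was at 3.19, 4.15 and 3.01 in U135 and at 4.40, 5.77 and 2.98 in Ubirth. Its levels were 5.76, 5.63 and 6.65 in U1m and 5.78, 6.09 and 6.48 in U2m. Birth values overlapped those of the 135-d fetuses, and the later ones did not. They also overlapped those of U1m, and the step from birth to 1 month was not called (limma, adjusted p = 0.12). It was at least 5.49-fold higher in U2m than in U135 (limma, adjusted p = 0.0060).

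Clone IGLV 17 was at 4.09, 3.63 and 3.71 in U135 and at 4.27, 1.59 and 3.41 in Ubirth. Its levels were 5.86, 5.19 and 6.39 in U1m and 5.44, 5.56 and 6.13 in U2m. The later lambs lay above every Ujumqin fetus, but T120 replicate 3 (6.45) and T100 replicate 4 (5.91) reached their range. In Ubirth it was well above background in 1 of 3 arrays, so the fold from birth is uncertain. It rose 6.62-fold between birth and 1 month (limma, adjusted p = 0.0095) and was at least 3.73-fold higher in U2m than in U135 (adjusted p = 0.047). The first was not called without Ubirth replicate 2 (adjusted p = 0.082), and the second was not called when any of the 6 arrays was left out.

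Lambda-1e, at 1.72, 3.94 and 5.55 in U135 and 6.0, 6.42 and 7.04 in U2m, was 6.73-fold higher in 2-month lambs (limma, adjusted p = 0.021). Its U135 values were spread over the whole fetal range, with 1 of 3 arrays well above background. Without U135 replicate 1 the difference was 1.74 (limma, adjusted p = 0.19). Clone IGLV 70 was at 4.64, 4.52 and 4.58 in U135, 8.06, 5.30 and 5.32 in Ubirth, 6.54, 6.12 and 7.19 in U1m and 6.33, 6.38 and 7.19 in U2m, so all lambs were above U135. Its U2m minus U135 difference was 4.14-fold (limma, adjusted p = 0.024). Clone IGLV 34 was at 1.68, 2.72 and 3.73 in U135, 4.85, 4.68 and 4.88 in Ubirth, 4.81, 5.00 and 5.55 in U1m and 3.62, 4.90 and 5.12 in U2m. It was at least 2.36-fold higher at birth than at 135 d (limma, adjusted p = 0.0021) and at least 1.98-fold higher at 2 months (adjusted p = 0.0078).

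The other light chain calls in U2m against U135 were smaller. IGLV 96 rose 2.23-fold, kappa-2.3 1.96-fold, lambda-2c 1.56-fold and lambda-6c 1.53-fold. Kappa-2.3 was well above background in 1 of 3 arrays of U135. IGLV 35 was also called, yet it was not well above background in either group, so no fold is given. Clone IGLV 116, at 4.08, 4.16 and 3.72 in U135 and 5.37, 5.39 and 5.78 in U2m, was not called in this comparison, although its groups did not overlap. Clone IGLV 57 varied within groups. Its highest level was 8.54 in U1m replicate 3, and U135 replicate 2 stood at 5.18 while the other U135 arrays were at 1.62 and 1.57. Kappa-1 was at 4.98, 4.83 and 5.62 in Ubirth and 3.51, 2.89 and 3.57 in U1m, a difference that was not called.

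The light chain calls can be set beside the printed letters. Of the 8 tested light chain variable probes that hold either stretch, 6 rose in U2m against U135 (median difference 1.98), 0 rose at birth and 4 rose between birth and 1 month. Of the 16 that hold neither, 6 rose in U2m against U135 (median 0.66), 7 rose at birth and 1 between birth and 1 month. Over all tested probes 15.5%, 20.8% and 10.2% were called as higher in these comparisons, in the same order. The stretches were chosen after these values had been seen and overlap in their probes, so the counts are a description and were not tested.

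**Figure D2:**
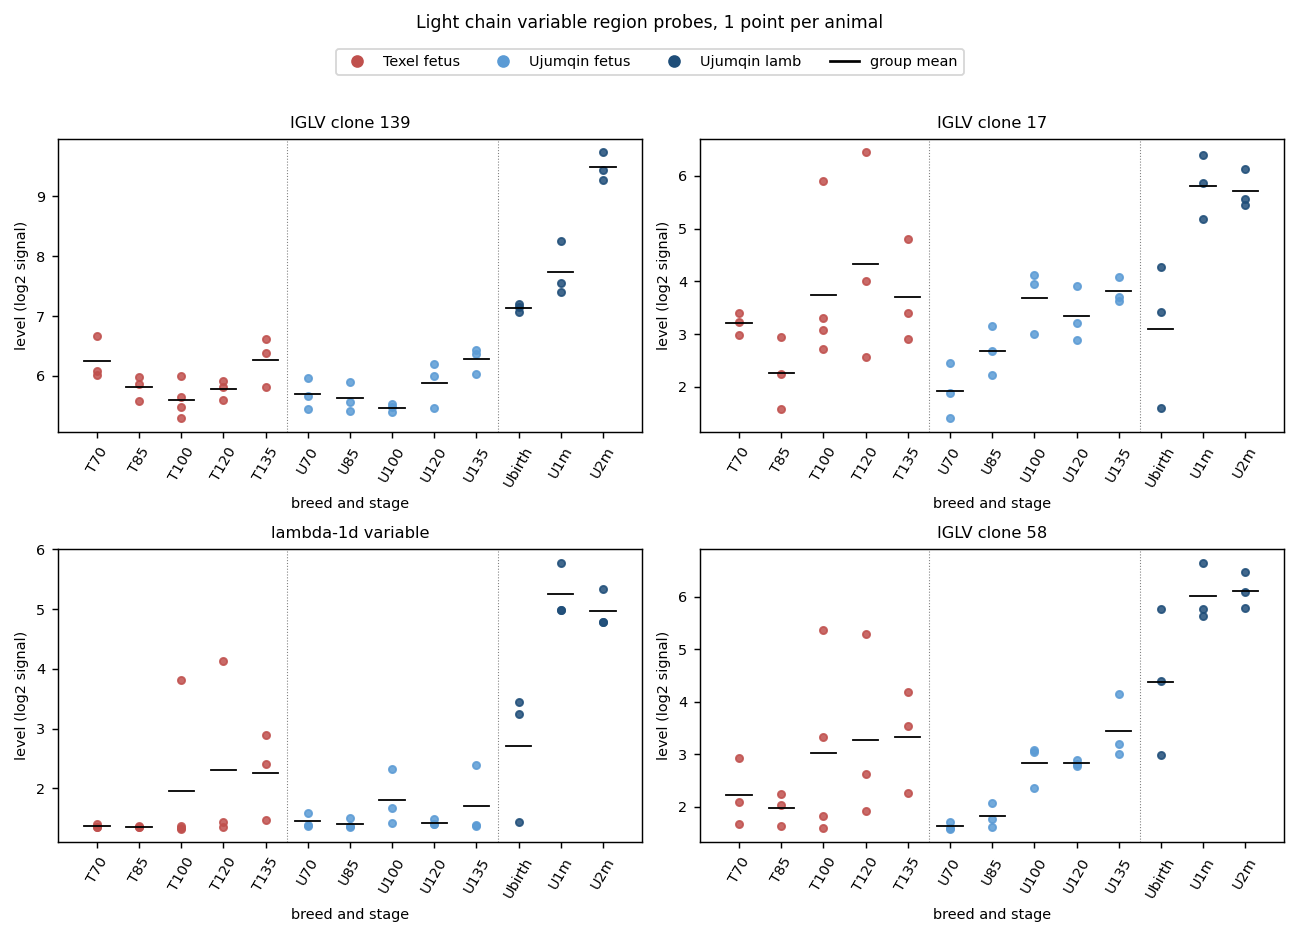
Level (log2 signal, vertical axis, a separate scale in each panel) of 4 light chain variable probes in each of the 13 groups (horizontal axis). Points are animals and black lines group means. IGLV clone 139 climbs from 7.07 to 7.21 at birth to 9.28 to 9.74 at 2 months. The other panels show higher group means at 1 month than at birth, and the high values of T100 replicate 4 and T120 replicate 3. For IGLV clone 58 the step from birth to 1 month was not called. Its values at birth (2.98 to 5.77) overlap those at 1 month (5.63 to 6.65).

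The lambda constant region segment, annotated as nonfunctional, did not follow the variable probes. Its levels were 10.49, 10.30 and 10.42 in U135, 11.60, 11.82 and 11.36 in Ubirth, 11.62, 11.44 and 11.42 in U1m, and 10.60, 10.16 and 10.93 in U2m. It was called 2.28-fold higher at birth than at 135 d (limma, adjusted p = 0.0093). Its level moved with the slide: all 8 arrays of each of slides 1, 2 and 3 were at 11.30 or above, and all 8 of each of slides 4 and 5 at 11.10 or below. Within the U100 group the array on slide 3 was at 11.30 and those on slide 4 at 10.56 and 10.55. With slide as a fixed block the difference at birth was -0.20 (SE 0.91). The lowest of all 40 values, 8.84, was that of T120 replicate 3.

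Heavy chain variable probes had 1 call of 43 in U2m against U135 and 9 of 43 at birth. Of all probes 33.4% and 42.9% were called in these 2 comparisons. Of the 43, clone VR23 alone rose in U2m against U135, at least 2.10-fold (limma, adjusted p = 0.032), and it was well above background in 1 of 3 arrays of U2m. The median difference of the 43 was 0.17. At birth 7 of the 43 rose and 2 fell. Clone 92, which rose most, went from 5.22 ± 0.10 to 6.83 ± 0.17 (SD, n = 3 each), 3.06-fold (limma, adjusted p = 2.4e-05), and VRB6 and clone 139 rose 2.17-fold and 2.05-fold. Clones VRA10 and VRB1 fell at birth and rose from birth to 1 month, VRA10 without being well above background in Ubirth or U1m. VRB1 was at least 1.60-fold lower at birth than at 135 d and at least 2.32-fold higher at 1 month than at birth.

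**Figure D3:**
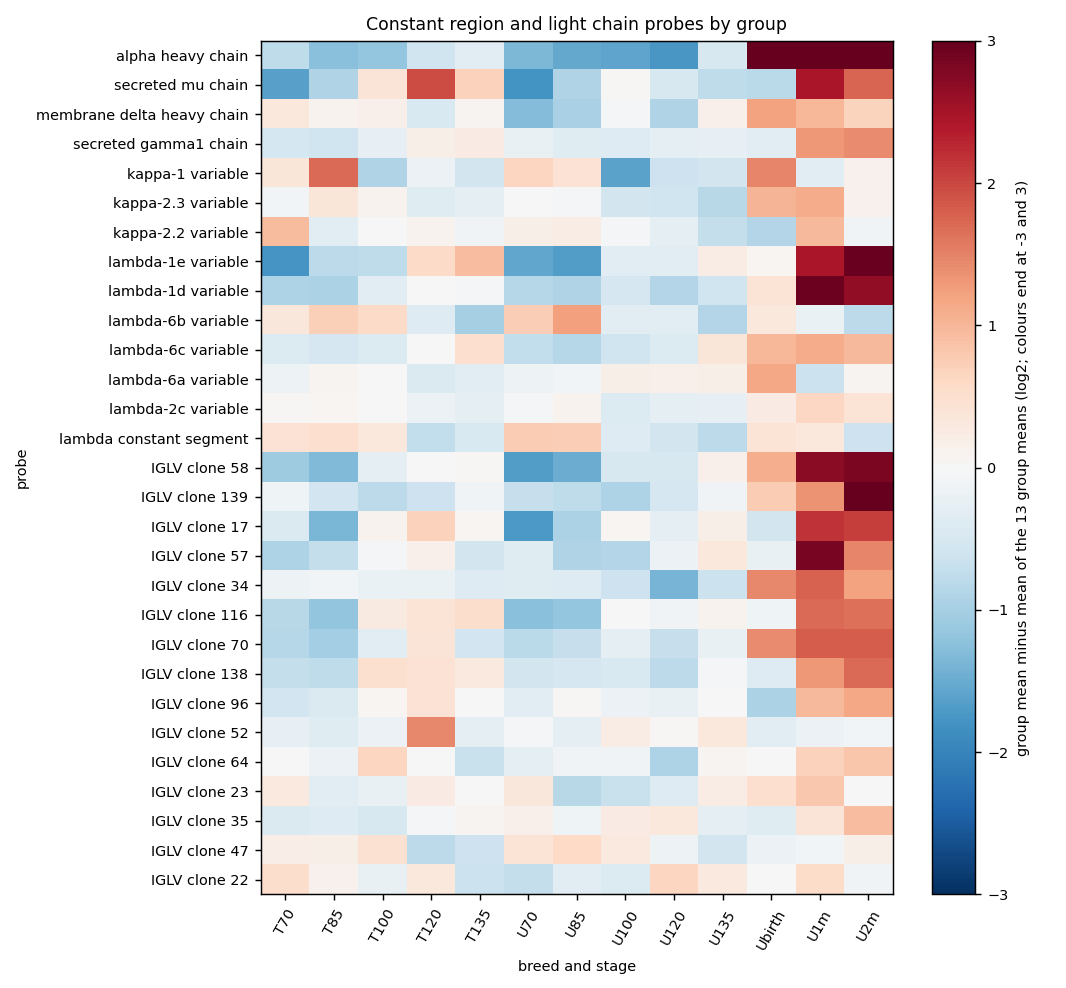
Group means of the 29 tested constant region and light chain probes (vertical axis) in the 13 groups (horizontal axis), each as the difference from that probe's mean over groups (log2, colour scale cut at -3 and 3). The alpha chain is high in all 3 lamb groups, and mu, lambda-1e, lambda-1d and IGLV clones 58, 139, 17 and 57 are high in U1m and U2m.

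The members called at birth (19) and in the following month (13) had 2 in common, VRA10 and VRB1, both in opposite directions, and the steps share the Ubirth arrays. From U135 to Ubirth 17 members rose and 2 fell, against 42.9% of all probes called (20.8% higher and 22.1% lower), with a median of 0.40 over the members. Alpha and delta, kappa-1 (at least 2.70-fold), kappa-2.3 (3.64-fold), lambda-2c, 6b and 6c, and IGLV 34 and 139 were among those that rose. Kappa-2.3 was well above background in 1 of 3 arrays of U135. Mu (-0.06, SE 1.13) and gamma1 (-0.06, SE 0.39) were not called. From Ubirth to U1m 12 rose and 1 fell, against 21.0% of all probes (10.2% higher and 10.8% lower), with a median of 0.31. Mu, gamma1, lambda-1d and IGLV 17, 57 (at least 2.45-fold), 96 (3.80-fold) and 116 (3.55-fold) rose, as did 5 heavy chain variable probes. Lambda-6a, well above background in 1 array of Ubirth, fell. From U1m to U2m IGLV 139 rose and the heavy chain variable clone VR15 fell (limma, adjusted p = 0.038), against 7.58% of all probes called (3.15% higher and 4.43% lower). Without Ubirth replicate 2 the birth count stayed at 19 and that of the following month went from 13 to 7. The latter was also 7 without U1m replicate 1 and 6 without U1m replicate 3.

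**Figure D4:**
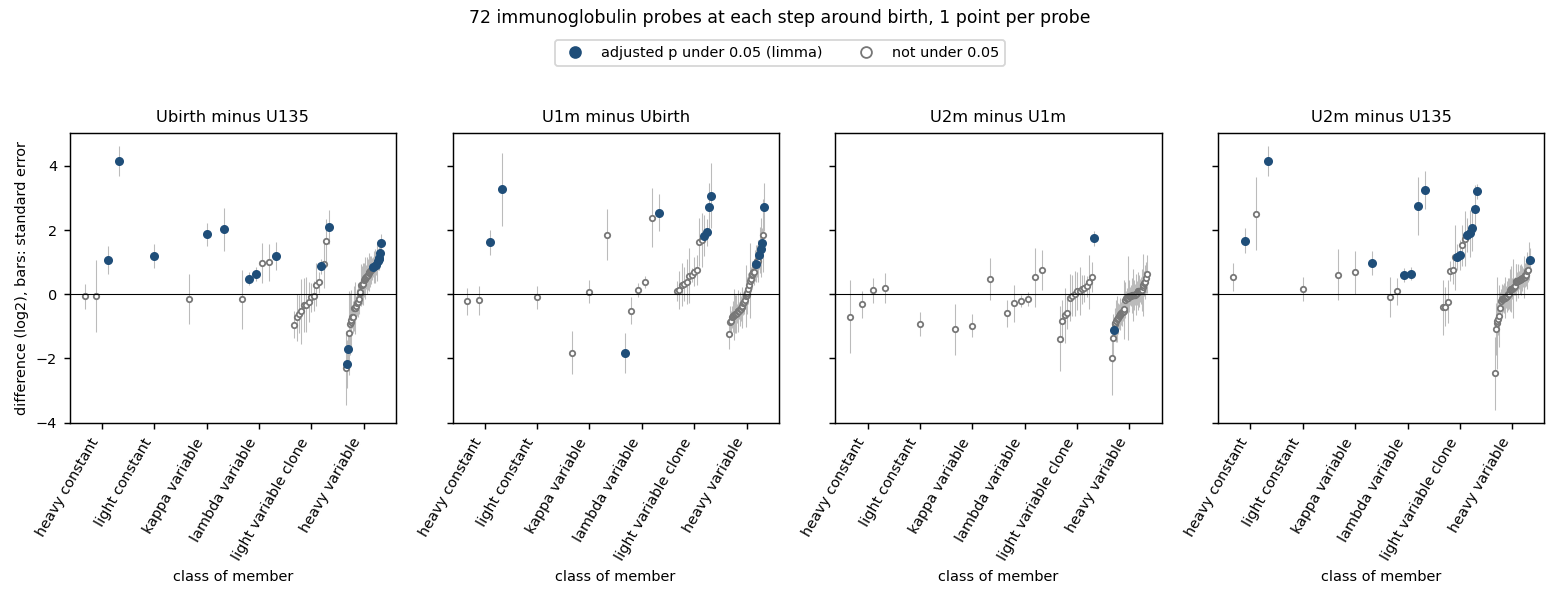
Difference of each of the 72 tested members (log2, vertical axis, bars: standard error) at 3 successive steps and over the whole interval, by class of chain (horizontal axis). Filled points passed the adjusted p threshold. The alpha chain is the highest point at birth, mu and gamma1 are filled from birth to 1 month, and few points are filled from 1 to 2 months.

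The slides limit the steps but not the whole interval. With slide as a fixed block 15 members were called in U2m against U135 (34.1% of all probes), but 1 in Ubirth against U135 (1.35%), 0 in U1m against Ubirth (0.0%) and 1 in U2m against U1m (0.435%). The member called at birth under that block was alpha, with a difference of 5.38 (SE 1.27, limma adjusted p = 0.029). Lambs could also be set against the 5 fetal arrays on their own slide. Alpha, IGLV 58, IGLV 139 and lambda-1d were above all 5 on each of the 3 slides with lambs. For lambda-1d and IGLV 58 the margin in Ubirth was slight. Their lowest birth lambs were at 1.43 and 2.98, and the highest fetuses of that slide at 1.41 and 2.93. Lambda-1d was well above background in 0 of 3 arrays of Ubirth. Alpha was at 8.65 to 10.72 in Ubirth against 4.93 to 5.62 in fetuses of that slide. It was at 8.85 to 10.17 in U1m against 4.56 to 5.57, and at 9.59 to 10.06 in U2m against 5.48 to 6.57. Gamma1 was above all fetuses of its slide in U1m and U2m and overlapped them in Ubirth. Mu overlapped them on every slide, and the fetuses that reached the lambs were T100 replicate 4 (12.92) on the slide of U1m and T135 replicate 3 (11.87) on that of U2m.

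During gestation 16 of 72 members were called in Ujumqin and 10 in Texel. Between 70 and 135 d, 10 members rose and 6 fell in Ujumqin, against 39.6% of all probes called (18.6% higher and 21.0% lower). Of those that rose, delta, VRA10, VR4 and IGLV 17 were not well above background on any array of U70 or U135. In Texel 5 rose and 5 fell, against 43.1% (20.4% higher and 22.7% lower). VRA10 was among those that rose, and it was not well above background on any array of T70 or T135. Without U70 replicate 2 the Ujumqin count was 10. In both breeds 8 of 72 were called, all in the same direction, against 28.1% of all probes called in both, of which 4063 of 4071 had the same direction. A rearranged mu heavy chain variable probe (A_70_P017166) rose 3.36-fold in Ujumqin and 3.20-fold in Texel (limma, adjusted p = 1.2e-05 and 2.0e-05). Lambda-6c rose 2.13-fold and 1.88-fold. Lambda-6b fell by 1.63 and 1.36 (log2), and heavy chain clone 53 by 1.29 in each. The 4 heavy chain constant probes were not called in Texel, and in Ujumqin delta was, from 2.46 ± 0.24 in U70 to 3.91 ± 0.18 in U135 (SD, n = 3 each), not well above background in either group. With slide as a fixed block 1 member was called in Ujumqin and 0 in Texel (3.72% and 1.76% of all probes). U70 and U135 share no slide, and neither do T70 and T135. Over all stages, 37 members changed in Ujumqin and 14 in Texel by limma's F test, against 79.8% and 52.0% of all probes. The counts were 22 and 2 with slide as a fixed block, against 50.8% and 2.28%.

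The 3 Texel fetuses named above had mu at 12.92 (T100 replicate 4), 14.66 (T120 replicate 3) and 11.87 (T135 replicate 3). The next fetus was T120 replicate 2 at 10.14, and the highest lamb was at 12.14. The same 3 were the 3 highest of 31 fetuses for mu, which follows from their choice by high mu. They were also the 3 highest for IGLV 17 and IGLV 70, whose probes are alike. For 12 other members 2 of them were among the top 3, for 16 members 1 was, and for 41 members none. These counts are a description, given without the share over all probes. They also ranked 1 to 3 of 31 fetuses for the summed signal of the T cell genes (5350, 19700 and 10800 in the order above, against 968 to 2190 in the other 28) and of the MHC class II genes (82100, 170000 and 102000, against 1850 to 57200). For the B and plasma cell genes their ranks were 8, 1 and 2 (413, 841 and 782, against 154 to 579 in the other 28). Their ranks were 3, 4 and 2 for the macrophage genes and 2, 3 and 4 for the pan-leukocyte gene. For the antibody transport and Fc receptor genes they were 2, 1 and 3. The summed signal of the heavy chain constant probes was 7960, 26000 and 3960, against 203 to 1310 in the other 28. Alpha in the 3 was at 5.57, 6.10 and 6.57, within or close to the range of other fetuses, and gamma1 at 7.42, 7.08 and 6.89. The summed signal of the muscle fibre genes was 444000, 347000 and 389000 in the 3, ranks 11, 30 and 28 of 31, against 323000 to 518000 in the other 28. The part of T cells, of cells with MHC class II or of the other listed cells in the mu levels of these 3 samples was not tested. Whether lymphoid tissue was collected with the muscle was not tested either.

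**Figure D5:**
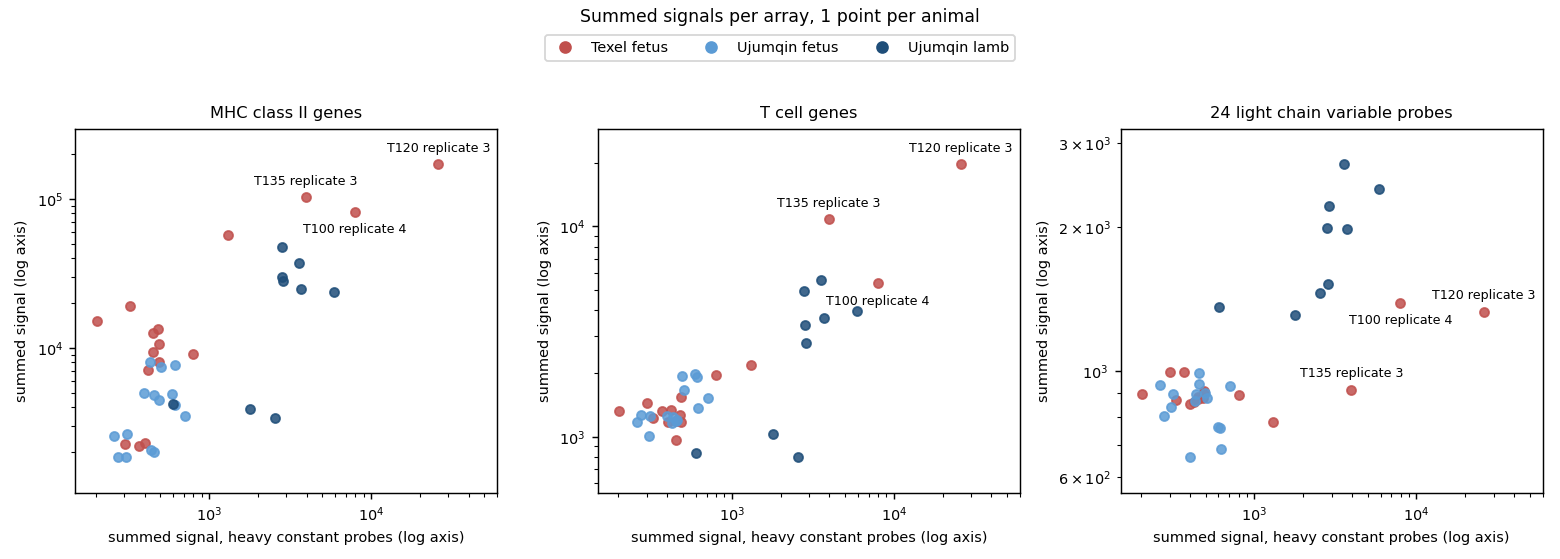
Summed signal of MHC class II genes, T cell genes and the 24 tested light chain variable probes (vertical log axes) against that of the 4 heavy chain constant probes (horizontal log axis), for each of 40 arrays. The 3 named Texel fetuses lie at or beyond the lambs for the first 2 lists, and the 3 birth lambs lie with the fetuses for these lists but above most fetuses for the light chain probes.

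At each of the 5 fetal stages 0 of 72 members were called between Texel and Ujumqin (limma), against 0.117%, 0.0207%, 0.0138%, 0.0345% and 0.0207% of all probes from 70 to 135 d, and 9, 6, 9, 4 and 7 members had an unadjusted p under 0.05, against 17.2%, 13.3%, 13.3%, 10.6% and 6.06% of all probes. At an unadjusted p under 0.05 with a 2-fold change 3, 1, 0, 2 and 2 members were called, against 3.16%, 2.01%, 1.41%, 3.85% and 2.09% of all probes. At 120 d 3 members were called with slide as a fixed block, against 6.27%. Averaged over the stages 2 members were higher in Texel, against 6.22% of all probes called, 2.82% as higher. These were the delta chain, by 0.66 (SE 0.19, limma adjusted p = 0.032), and heavy chain clone VR3, by 0.65 (SE 0.20, adjusted p = 0.042). Neither was called with sex or slide as a term, and the delta difference was -0.07 with slide as a fixed block. VR3 was also lost without the 3 Texel arrays (adjusted p = 0.053). Mu was 0.88 higher in Texel on average (SE 0.50, adjusted p = 0.31). By stage its difference was 0.19, 0.01, 0.34, 2.43 and 1.45 from 70 to 135 d, none of them called, with the 3 Texel fetuses with high mu in the last 3. No member's breed difference changed with stage at the threshold (0.207% of all probes did), and 1 had an unadjusted p under 0.05, against 13.5% of all probes.

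Markers of other cells also differed between the groups, not all in the same direction. Between U135 and U2m, 5 of 7 MHC class II genes rose, among them DRA, part of the receptor that presents antigen to T cells, 6.27-fold (limma, adjusted p = 0.017). Of 7 tested T cell genes, 4 rose (CD3E, CD4, CD5 and CD40LG) and CD247 fell. Of 3 macrophage genes 2 rose (CD14 and LYZ), and the pan-leukocyte gene ITGB2 rose. In the B and plasma cell list 3 genes had probes. TNFSF13B, the B cell survival factor BAFF, rose at least 5.46-fold (limma, adjusted p = 0.0017), CD40, the receptor through which T cells help B cells, fell by 1.11 log2 units (limma, adjusted p = 0.00022), and CR2 was not called. No probe was named for the joining chain, MZB1 or CD79A, so plasma cells were not checked by markers other than the immunoglobulins. Of 6 tested antibody transport and Fc receptor genes FCGR2B, the inhibitory IgG receptor, rose 7.97-fold (adjusted p = 0.00044). The receptor FCGRT, which carries IgG across cells and protects it, did not (-0.08, adjusted p = 0.76), and the polymeric receptor PIGR, which carries IgA, was well above background on no array. The erythroid gene HBB fell by 6.27 on the log2 scale and the muscle oxygen store MB rose 7.01-fold. Birth differed from the later ages in these lists. The MHC class II sum was 3400 to 4240 in Ubirth, against 4870 to 8120 in U135, 23700 to 30000 in U1m and 28000 to 47800 in U2m. The T cell sum was 798 to 1030 in Ubirth, against 1160 to 1670, 3380 to 3950 and 2800 to 5560. The summed level of the light chain variable probes was nevertheless 1310 to 1460 in Ubirth, against 866 to 940 in U135, 1520 to 2400 in U1m and 1990 to 2710 in U2m. The part of these cells in the immunoglobulin differences was not tested.

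The mean level of the 72 members was 3.73 to 4.09 over the 10 fetal groups, 4.33 in Ubirth, 4.79 in U1m and 4.59 in U2m. Among 1522 tested probes with a gene name, the closest courses to that mean over the 13 group means were those of MDD2 (Pearson's r = 0.94) and thyroid hormone receptor beta1 (r = 0.93). For alpha alone they were thyroid hormone receptor beta1 (r = 0.97) and CRY1 (r = 0.97). The 13 points share arrays and slides, and these are descriptions over genes picked for their likeness.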

How the data were processed

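RNA of 40 muscle samples was hybridised, 1 animal per array, to single-colour Agilent sheep arrays labelled with Cy3. The deposited scanner files, made by the authors with Agilent Feature Extraction 10.5, hold per-spot intensity values, and the processed signal is a background-corrected intensity. The series table deposited by the authors holds log2 values of the same arrays and served as an alternative. Here outlier spots were dropped, intensities were averaged over the spots of a probe, quantile-normalised over the 40 arrays, set to a floor of 1 and converted to log2. No genome coordinates came with the probes.

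Probes well above background on at least 1 array (14480) were tested with limma 3.58.1 in R 4.3.3 (lmFit and eBayes over the 13 group means, Benjamini-Hochberg over all tested probes). Breeds at a stage were compared with the arrays of that stage alone. Scripts were tested on simulated data. Groups came from the labels. Nothing names separate litters, so p-values measure the spread between these animals. The number of arrays per group, 3 or 4, limits the precision.

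Members to be named were those with an adjusted p under 0.05 in U2m against U135, in either stage F test or in the breed average. Of 41 such members the 12 with the widest spread of group means were taken, and the other 29 are given by range and count. Gamma1, delta, the lambda constant segment and members named for single calls were added after their values were seen. The members, the gene lists and the tests were chosen with earlier results of these data known. Alternatives were other scalings, background corrections, filters, floors, thresholds, fits, covariates, blocks, the methods' t-test, each array left out, and, chosen after seeing the data, the 3 Texel arrays with high mu left out.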

Additional observations from a re-analysis of the deposited data

Results flagged for a closer look

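In T100, the only group of 4, the highest array stood further from the rest than Dixon's critical value in 4 of the 15 members checked, and it was replicate 4 each time. The gap to the next array, as a share of the group's range, was 0.886 for lambda-1e (5.77 against 1.94 for the next), 0.85 for the secreted mu chain (12.92 against 8.45), 0.981 for lambda-1d (3.81 against 1.37) and 0.886 for IGLV clone 57 (4.55 against 1.89). Chance picks out about 1 in 20 groups where the values are independent. The 15 members were picked by their values and the 4 rest on 1 array, so that rate cannot be set against the 4. T100 replicate 4 is 1 of the 3 Texel fetuses with high T cell and MHC class II sums, and the part of those cells was not tested.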

How the results depend on the processing

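Called members are counted here where the count moved by over 1.5 times. With slide as a fixed block the counts were 1 (Ubirth against U135), 0 (U1m against Ubirth), 1 (U2m against U1m), 1 (U135 against U70), 0 (T135 against T70), 3 (T120 against U120), 0 (breed average), 22 (Ujumqin stages) and 2 (Texel stages). With slide as a random block U2m against U1m gave 1 and the breed average 0, and with sex as a term 1 and 0. The methods' t-test after adjustment gave 3 for U2m against U135, 5 for Ubirth against U135, 0 for U1m against Ubirth, 0 for U2m against U1m, 9 for U135 against U70 and 3 for T135 against T70. At an unadjusted p under 0.05 and 2-fold it gave 8 for Ubirth against U135, 5 for T135 against T70, 3 for T70 against U70 and 1 for T135 against U135. limma at that threshold gave 3, 1, 2 and 2 for the breeds at 70, 85, 120 and 135 d and 0 for the breed average. Adjusted p with 2-fold gave 6 for T135 against T70 and 0 for the breed average. Scaling to the 75th percentile gave 8 for U1m against Ubirth, 5 for U2m against U1m, 2 for T70 against U70 and 5 for the breed average. Normexp gave 4 for U2m against U1m, 9 for U135 against U70 and 0 for the breed average. The deposited log2 table and keeping outlier spots each gave 1 for U2m against U1m, and the floor of 16 gave 0 for the breed average. Fits of the groups compared alone gave 0 for U2m against U1m, 1 for the breed average and 7 for the Texel stages. Without the 3 Texel arrays, chosen after seeing the data, the breed average gave 1 and breed by stage 1. The cause of these changes was not tested.

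Leaving out 1 array at a time gave 7 to 13 calls for U2m against U135 (7 without U2m replicate 3 and 7 without U135 replicate 1), 14 to 19 for Ubirth against U135, 6 to 10 for U1m against Ubirth (6 without U1m replicate 3, 7 without U1m replicate 1 and 7 without Ubirth replicate 2), and 1 to 1 for U2m against U1m. It gave 10 to 15 for U135 against U70 (10 without U70 replicate 2) and 7 to 9 for T135 against T70. For the breeds at a stage it gave 0 to 0 at 70 and 85 d, 0 to 2 at 100 d (2 without U100 replicate 1), 0 to 1 at 120 d (1 without T120 replicate 1) and 0 to 1 at 135 d (1 without U135 replicate 3). It gave 0 to 4 for the breed average, 0 to 1 for breed by stage (1 without T120 replicate 1), 35 to 40 for the Ujumqin stages and 10 to 19 for the Texel stages. Alpha and IGLV 139 in U2m against U135 kept their call under every alternative run, with adjusted p of at most 0.039 and 0.042.

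Replicate numbers did not pair the samples (correlations of deviations from -0.31 to 0.11). With the replicate block the counts were 14, 21, 12 and 2 for the postnatal comparisons (U2m against U135, Ubirth against U135, U1m against Ubirth, U2m against U1m), 16 and 10 for gestation, 0 for the breeds at each stage, 1 for the breed average, 0 for breed by stage, and 38 and 18 for the stages. With that block mu in U2m against U135 passed the threshold (adjusted p = 0.042) and VR3 in the breed average did not (adjusted p = 0.063).

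Most differences that turned sign did so with slide as a fixed block. For Ubirth against U135 these were delta (-2.49), kappa-1 (-2.73) and the lambda constant segment (-0.20). For U1m against Ubirth it was IGLV 116 (-0.42), and for U2m against U1m delta (2.65) and VR15 (0.35). For U135 against U70 they were heavy chain clone 106105 (-0.42), VRB6 (-0.24), the lambda constant segment (0.32), IGLV 139 (-0.36), IGLV 17 (-1.03) and IGLV 47 (0.26). For T135 against T70 it was IGLV 47 (0.17), and for the breed average delta (-0.0715). IGLV 35 in U2m against U135 turned to -0.0022 with normexp. Signal over background limits all of these, since 17 of the 89 members were well above background on no array.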

Other observations

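The 29 members that met the naming rule without being among the 12 widest had spreads of group means of 1.02 to 2.52 on the log2 scale, and the 31 tested members that did not meet it had spreads of 0.84 to 2.71. The number of the 89 members that were well above background on an array ran from 19 to 47 over the fetal arrays, from 23 to 40 in Ubirth, from 45 to 48 in U1m and from 33 to 34 in U2m. Of the 24 tested light chain variable probes, 11 were well above background on more arrays in U1m than in Ubirth and 2 on fewer, and 8 on more arrays in U2m than in U135 and 3 on fewer. A probe outside the members (A_70_P024411), annotated as a spleen and brain transcript, shared a run of 32 bases with IGLV clone 57, and another (A_70_P041151), annotated as a VH region precursor, shared 30 bases with heavy chain clone 1.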
